A study of Mus musculus with 59 samples.

Results

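The family described here is the set of mouse genes for heterotrimeric G protein subunits and for regulators of G protein signalling (RGS). Members were taken by gene symbol, through the Ensembl identifiers of the deposited count table: Gna followed by a number or by one of the letters of the named alpha subunits, Gnb1 to Gnb5, Gng with a number, and Rgs with a number. Of 21935 identifiers in the table, 53 were members: 16 G alpha, 5 G beta and 10 G gamma genes and 22 RGS genes, which include the membrane anchors Rgs7bp and Rgs9bp. All 53 are protein coding on GRCm38. No measured value was used to choose them. Of the members, 10 lie on chromosome 1, and all 10 are RGS genes.

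A heterotrimeric G protein consists of an alpha subunit that binds GTP or GDP and a beta-gamma dimer, and it is switched on by a receptor with its ligand bound. The alpha subunits fall into classes by what they act on: Gs and Golf stimulate adenylyl cyclase, Gi, Go and Gz inhibit it, Gq and its relatives activate phospholipase C beta, and the G12/13 class acts on the cytoskeleton. RGS proteins speed the hydrolysis of GTP on the alpha subunit and so shorten the signal, and freed beta-gamma dimers open GIRK potassium channels. The GLP-1 receptor couples mainly to Gs and the Y2 receptor for PYY to Gi and Go, so both classes are of interest in the feeding centres of the hypothalamus and hindbrain.

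C57BL/6 mice received IP118/PY115 or vehicle by intraperitoneal injection and were killed 4 h later. The series title speaks of co-agonism at receptors for PYY and GLP-1 in obese-diabetic mice, and the labels used here give no dose, diet, age or sex. Tissue was collected by laser capture from 10 µm sections of frozen brain, 4 mm² per region, from the paraventricular nucleus (PVN) and arcuate nucleus (ARC) of the hypothalamus and from the nucleus of the solitary tract (NTS) in the hindbrain, and polyA RNA was sequenced. There were 10 vehicle and 10 treated libraries of PVN, 9 and 10 of ARC, and 10 and 10 of NTS. The library numbers in the titles of all but 5 libraries follow each other in a parallel order of treatments in the 3 regions, but the labels do not say what the numbers mark or which libraries came from 1 animal, so libraries were treated as independent, and p-values measure only the spread between these libraries.

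Library totals ran from 3964093 to 28510118 counts, and the median totals of PVN, ARC and NTS were 10491077, 10392473 and 11700301.5. The region markers of the vehicle groups were highest in the regions of their labels: the 6 PVN genes (Avp, Oxt, Crh, Trh, Sim1, Otp) summed to 14674 CPM in PVN, against 345 in ARC and 5.80 in NTS. The 6 ARC genes in the table summed to 2806 CPM in ARC, 21.4 in PVN and 38.4 in NTS, and the 7 NTS genes to 1284 CPM in NTS, 0.420 in PVN and 1.61 in ARC. Among treated NTS libraries, number 9 had a PVN marker sum of 103 CPM, against 8.85 or less in the others. It also had the highest Rgs16 (12.5 CPM) and Rgs8 (106 CPM) of its group, and 0 members were called in NTS with or without it. Its part in other NTS values was not tested. Levels throughout are CPM, read counts scaled to the TMM-adjusted total of each of the 59 libraries, and libraries are numbered within their group in order of deposit. Earlier results of these data placed the libraries labelled vehicle 1 and treated 1 of every region on the side of the other group, and leaving out these 6 raised the number of genes called between treatments in PVN from 88 to 429, in ARC from 0 to 153 and in NTS from 0 to 162. Results that rest on them are given with and without them. The titles also number vehicle 8 to 10 of PVN and vehicle 8 and 9 of ARC apart from the rest, from 5553 to 5557, with no treated library among them, so that whatever this numbering marks and the vehicle group cannot be told apart there. Without these 5, edgeR called 0 members between treatments in PVN and ARC, and 27, 22 and 36 in the vehicle contrasts of PVN with ARC, PVN with NTS and ARC with NTS. Because the libraries numbered 1 were singled out from expression, tests without them are not independent of the outcome. In ARC, the libraries labelled vehicle 8, treated 1 and treated 2 had the highest sums of 7 markers of neighbouring thalamus and striatum, at 364, 321 and 191 CPM against 177 CPM or less in the other 16. Treated 2 also had the highest oligodendrocyte marker sum in ARC, 6085 CPM. In bulk tissue, fewer cells of a type and less RNA per cell cannot be told apart.

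All 4 parts of the signalling machinery were present in each nucleus, and a small number of subunits made up most of the transcript. Compared per kilobase of exon, Gnas, the gene for Gs alpha, had the highest level of the G alpha genes in each region, at 374 ± 19.6 CPM per kb in PVN (SD, n = 10), 293 ± 9.92 in ARC (n = 9) and 399 ± 31.5 in NTS (n = 10). Gnai2, an inhibitory subunit, came next at 78.6 ± 3.42, 122 ± 7.48 and 90.6 ± 5.71 CPM per kb. Next came Gnao1, the alpha subunit of Go that is abundant in neurons, and Gnai1. Gnao1 was ahead in PVN at 62.1 ± 3.90 against 47.2 ± 3.44 CPM per kb and in NTS at 56.6 ± 2.95 against 46.4 ± 2.17, while in ARC Gnai1 stood at 97.1 ± 8.42 and Gnao1 at 56.3 ± 3.67. The Gnas exon union spans 11186 bases and includes alternative promoters, and 13.1% of it overlaps the opposite-strand gene Gm20721 and 8.83% Nespas. Whether the counting used strand is not given in the sources used here, so its level per kb is uncertain.

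Among the beta subunits the order per kb was Gnb1, Gnb2, Gnb5, Gnb4 and Gnb3 in all 3 regions. In PVN, ARC and NTS, Gnb1 took 48.8%, 45.95% and 46.9% of the beta total, and Gnb5, the divergent subunit that pairs with RGS proteins of the R7 class, took 15.2%, 15.1% and 16.1%. Of the gamma subunits, Gng3, a neuronal form, led with 50.9%, 52.04% and 51.5% of the gamma total, followed by Gng2 with 22.6%, 28.02% and 22.5% and Gng4 with 15.99%, 11.7% and 12.6%. Gng3 shares 24.2% of its exon length with Bscl2, so its level is uncertain for the same reason as that of Gnas. The RGS genes were led by Rgs2, which acts mainly on Gq, at 112 ± 34.7 CPM per kb in PVN and 94.2 ± 15.2 in ARC, and by Rgs4 at 76.6 ± 11.3 in NTS, where Rgs2 stood at 26.1 ± 3.71. In PVN and ARC the second place went to Rgs4, at 75.9 ± 13.7 and 71.5 ± 6.23 CPM per kb, and the SD ranges of Rgs2 and Rgs4 did not meet in ARC but did in PVN.

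**Figure D1:**
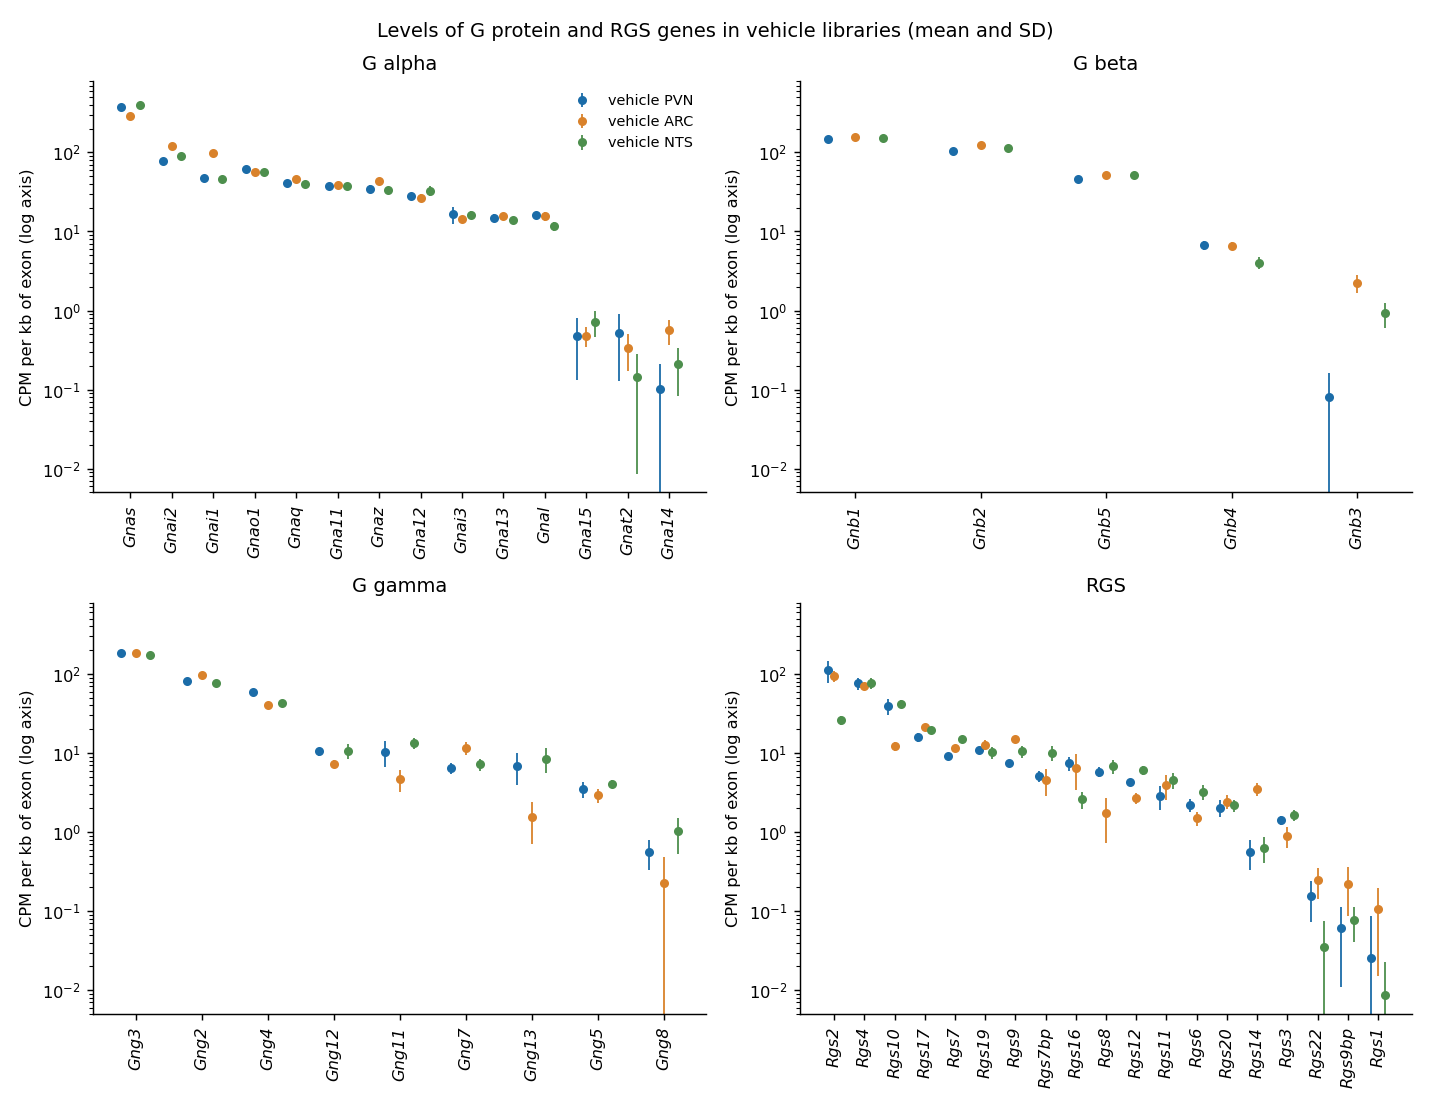
Levels of the 47 members tested in all 6 groups, in CPM per kb of exon on a log axis, as mean and SD of the vehicle libraries of PVN (n = 10), ARC (n = 9) and NTS (n = 10), with lower bars clipped at the axis. Gnas, Gnb1, Gng3, Rgs2 and Rgs4 stand at the top of their panels, and Gnb3, Rgs14 and Rgs10 show wide gaps between regions.

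At the low end, 6 members did not pass the filter on low counts in the fit of all 59 libraries. Rgs21 had no count in any library. The rod and taste transducins Gnat1 and Gnat3 and the platelet gene Rgs18 were at 0 in many libraries, and none of these 3 exceeded 8 counts in a library. Gng10 reached at most 12 counts and Rgs13 at most 16. Gng10 shares 72.0% of its exon length with Gm20503 on the same strand. The filter was passed by 40 members in the PVN fit, 46 in ARC and 43 in NTS, and by 47 in the joint fit.

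Vehicle groups of the 3 regions were compared to ask how the nuclei differ in this machinery 4 h after vehicle injection. Gnai1, Gnai2, Rgs14 and Rgs9 were lower in PVN than in ARC, and Rgs10, Rgs8, Gng4 and Gnas were higher there. By edgeR's quasi-likelihood test 31 of 47 members (66%) were called at a Benjamini-Hochberg adjusted p (FDR) under 0.05, 13 higher and 18 lower in PVN, against 46% of all 14379 genes tested (24.8% higher, 21.1% lower). PVN and NTS differed in fewer members, 21 of 47 (44.7%), 8 higher and 13 lower in PVN, against 56.1% of all genes (28.3% higher, 27.8% lower). ARC and NTS differed in 37 of 47 (78.7%), 22 higher and 15 lower in ARC, against 61.7% of all genes (30.2% higher, 31.5% lower). The median absolute log2 difference of the members was 0.36, 0.23 and 0.52 in these contrasts, against 0.23, 0.28 and 0.32 over all genes. The PVN and NTS contrasts with ARC use the same ARC libraries, so they are not independent. Without the libraries numbered 1, the counts were 31, 18 and 35, against 43.7%, 54.6% and 60.3% of all genes. Among the 47 were Gna14, Gna15, Gnb3, Gng8, Rgs1, Rgs22 and Rgs9bp, which passed the joint filter but not that of the PVN fit. Gnat2, Rgs1, Rgs22 and Rgs9bp did not pass that of NTS, nor Gng8 that of ARC. Such members could enter through groups where they are higher, so their calls are partly set by the filter.

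In 12 members the vehicle libraries of PVN and ARC did not overlap at all, where 11.6% of all genes showed this. PVN and NTS did not overlap in 9 members, against 13.2% of all genes, and ARC and NTS in 15, against 22.6%. Gnb3, which did not pass the filter in PVN, is counted in both contrasts with PVN. Rgs22, which did not pass in NTS, is counted in that of ARC and NTS.

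**Figure D2:**
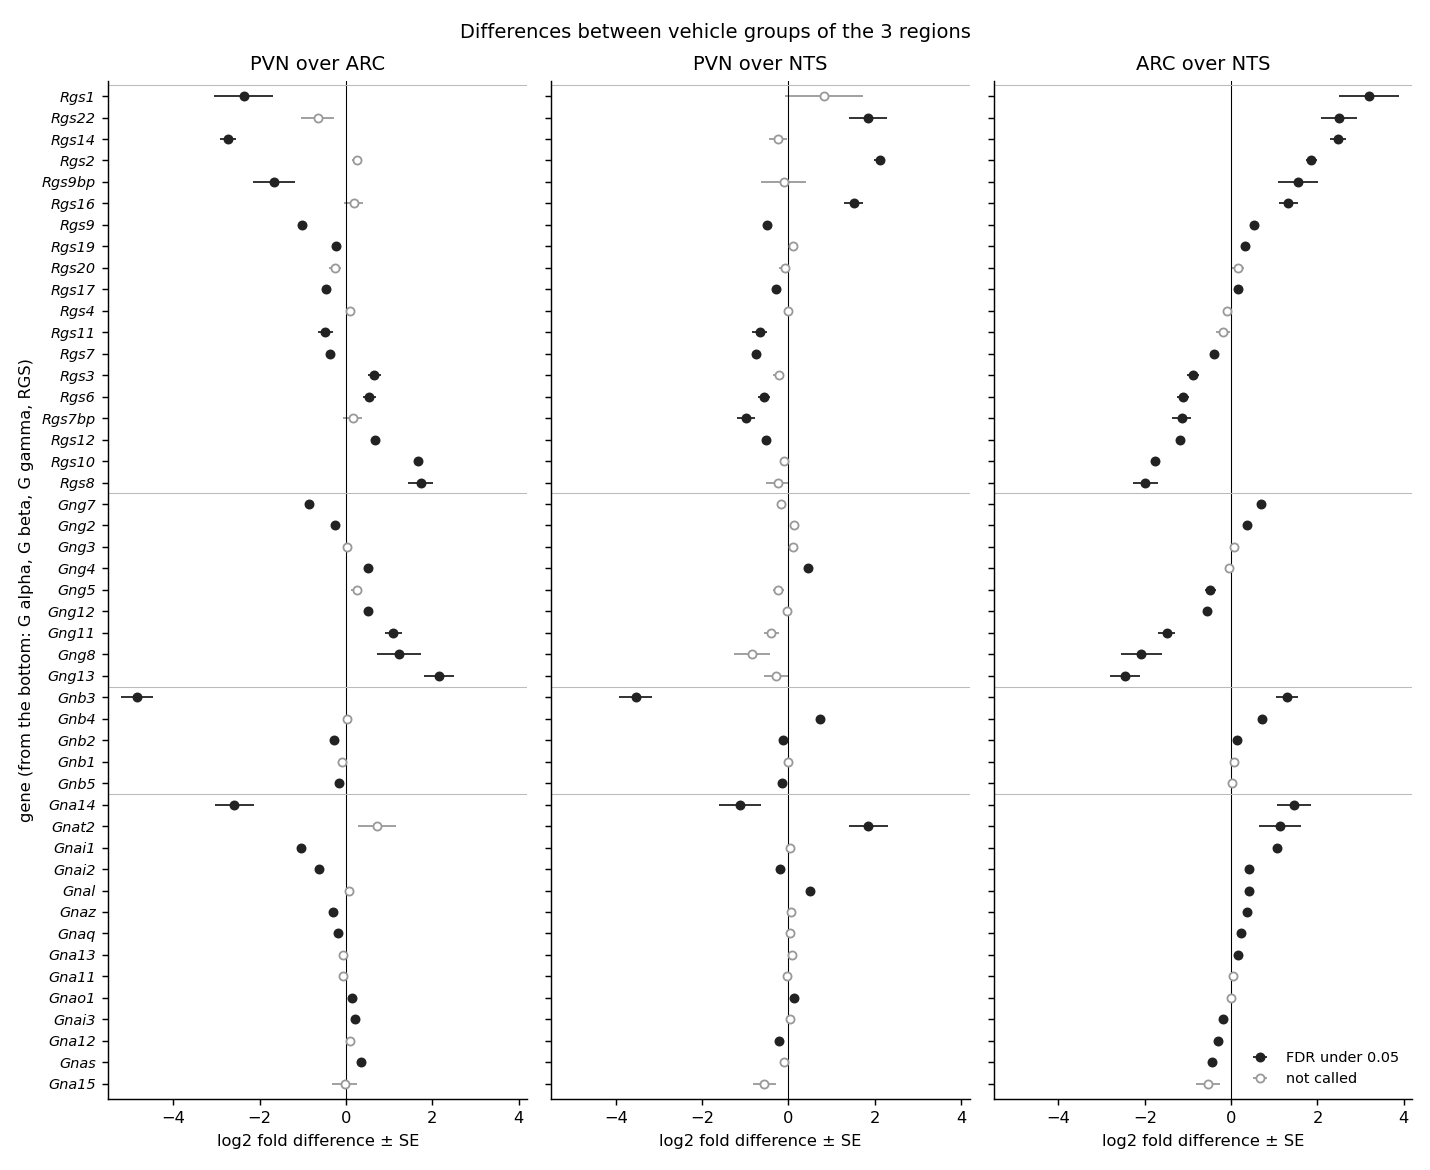
Log2 differences between the vehicle groups of PVN over ARC, PVN over NTS and ARC over NTS for 47 members, with SE bars; filled points have an edgeR FDR under 0.05. The alpha subunit Gnai1 stands at -1.04 and 1.07 in the contrasts with ARC and at 0.02 between PVN and NTS.

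Among the alpha subunits, Gnai1 had the smallest FDR in both contrasts with ARC. Its lowest, median and highest CPM were 135, 146 and 171 in PVN, 269, 304 and 336 in ARC, and 133, 146 and 158 in NTS. All ARC libraries lay above all others, and PVN and NTS covered the same range. The log2 difference was -1.04 ± 0.04 for PVN over ARC (edgeR FDR = 1.05e-30) and 1.07 ± 0.04 for ARC over NTS (FDR = 1.18e-31). Gnai2 ran at 282, 295 and 318 CPM in PVN, at 422, 452 and 506 in ARC, and at 320.5, 337 and 389 in NTS. No 2 regions overlapped, with ARC highest and PVN lowest (PVN over ARC -0.63 ± 0.05, edgeR FDR = 2.76e-18; ARC over NTS 0.43 ± 0.05, FDR = 6.42e-12).

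Gnas was lowest in ARC. Its lowest, median and highest CPM were 3750.0, 4216 and 4465 in PVN, 3159, 3265 and 3526 in ARC, and 3851, 4538 and 4919.9 in NTS. The ARC libraries were below every PVN and NTS library (PVN over ARC 0.36 ± 0.05, edgeR FDR = 3.32e-09; ARC over NTS -0.45 ± 0.05, FDR = 1.11e-12). Gnal, the gene for Golf alpha, which couples dopamine and adenosine receptors to cyclase in the striatum, ran at 161, 182 and 202 CPM in PVN and at 108, 128 and 157 in NTS, with no overlap (0.49 ± 0.07, edgeR FDR = 5.32e-08). In ARC it stood at 175 ± 22.8 CPM and did not differ detectably from PVN (0.07 ± 0.08, edgeR FDR = 0.492). The other called alpha subunits moved less: Gnaz, whose product resists pertussis toxin, differed by -0.31 ± 0.06 between PVN and ARC, and Gnaq by -0.19 ± 0.05. Gna11 was called in none of the 3 contrasts with TMM scaling, but between PVN and ARC with scaling by library totals alone, and stood at 153 ± 8.21, 159.8 ± 9.14 and 156 ± 9.03 CPM.

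As shares of summed G alpha CPM per kb, the Gi, Go and Gz class with the transducins made up 31.9% ± 0.997 in vehicle PVN, 43.2% ± 0.745 in ARC and 31.2% ± 1.21 in NTS. The Gs and Golf class made up 51.9% ± 1.38, 40.03% ± 0.991 and 52.6% ± 1.93. Every ARC library lay between 41.9% and 43.98% for the inhibitory class, above the highest value of 33.5% in PVN and 34.1% in NTS. With Gnas left out of the total, the inhibitory class stood at 63.3% ± 0.629, 69.7% ± 0.892 and 63.8% ± 1.11. The Gq/11 class held 10.5%, 11.3% and 10.1%, and the G12/13 class 5.77%, 5.48% and 6.05%. In treated libraries the inhibitory class stood at 31.7%, 43.2% and 30.5%, each within 1 SD of the vehicle mean in its region.

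**Figure D3:**
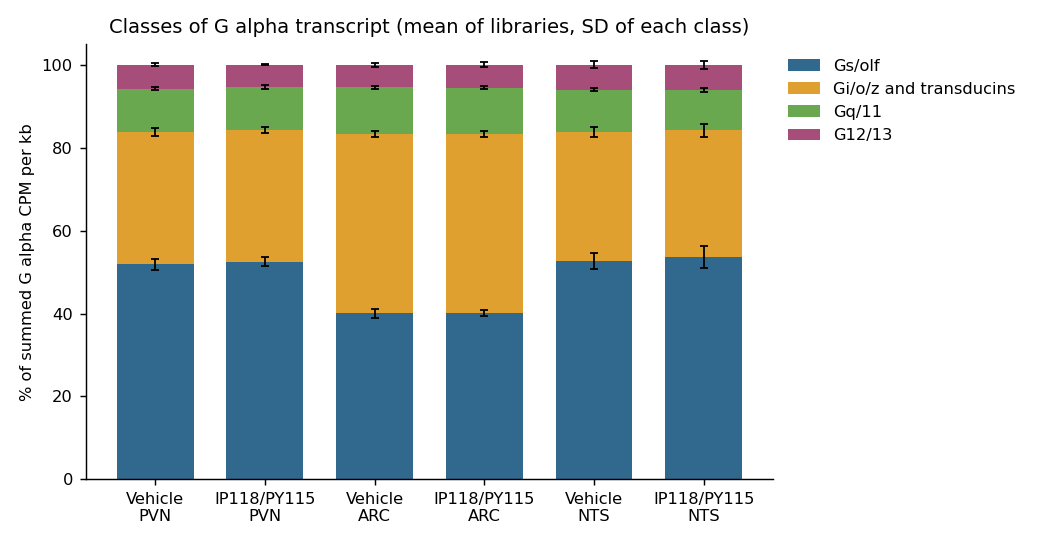
Classes of G alpha transcript as stacked percentages of the summed G alpha CPM per kb in the 6 groups, means over libraries with SD bars at the top of each class. The Gi, Go and Gz class takes 43.2% in both ARC groups and between 30.5% and 31.9% in the 4 PVN and NTS groups.

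Of the beta subunits, Gnb3, known from cone photoreceptors and bipolar cells of the retina, was close to absent in PVN. It reached 0.628 CPM at most there, with 0 to 5 counts in a library, and ran from 3.38 to 8.46 CPM in ARC and from 1.03 to 3.64 in NTS. It did not pass the filter on low counts in the PVN fit and entered the fit of all regions through ARC and NTS, where it is higher, so its levels are given without a test. Gnb4 ran at 71.7, 81.3 and 104 CPM in PVN, 70.8, 84.4 and 97.2 in ARC, and 37.9, 51.5 and 62.4 in NTS. The NTS libraries lay below all others (PVN over NTS 0.73 ± 0.09, edgeR FDR = 5.66e-11; ARC over NTS 0.71 ± 0.09, FDR = 1.88e-10). Gnb1 was called in none of the 3 contrasts with TMM scaling, but in both contrasts with ARC with scaling by library totals alone, and stood at 640.2 ± 43.9, 676 ± 37.6 and 642 ± 33.2 CPM.

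The gamma subunits split by region in both directions. Gng4 ran at 162, 198 and 219 CPM in PVN and at 121, 136 and 151 in ARC, with no overlap (0.52 ± 0.07, edgeR FDR = 4.2e-09), and was at 142 ± 15.6 CPM in NTS (PVN over NTS 0.46 ± 0.07, edgeR FDR = 3.46e-08). Gng7, which partners Golf and Gs alpha in striatal neurons, was highest in ARC at 26.98, 44.8 and 59.5 CPM, against 19.3, 23.5 and 30.7 in PVN and 21.01, 27.4 and 33.9 in NTS. The ARC range overlapped both others (PVN over ARC -0.85 ± 0.10, edgeR FDR = 6.58e-11; ARC over NTS 0.69 ± 0.10, FDR = 9.24e-09). Gng11, a farnesylated gamma subunit, was lower in ARC, at 2.37, 4.45 and 5.91 CPM, than in PVN at 5.68, 8.46 and 16.8 (PVN over ARC 1.10 ± 0.20, edgeR FDR = 3.24e-06). In NTS it ran at 8.67, 12.4 and 14.9 CPM, above every ARC library (ARC over NTS -1.49 ± 0.19, edgeR FDR = 5.29e-10). Gng13 stood at 5.38 ± 2.31 CPM in PVN, 1.22 ± 0.662 in ARC and 6.57 ± 2.29 in NTS. It shares 51.6% of its exon length with Chtf18 on the opposite strand and is uncertain.

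The endothelial markers also differed in these libraries. Their sum over 8 of 8 genes was 361 to 534 CPM in vehicle PVN, 90.6 to 137 in ARC and 174 to 246 in NTS, with none of the 8 at 0 in a group. Mural markers, 6 of 6, summed to 105 to 184, 43.7 to 75.3 and 109 to 151 CPM. The part of these cells in the difference of Gng11 was not tested.

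In the R4 class of RGS genes, small proteins made mostly of the RGS domain, Rgs2 set NTS apart. Its lowest, median and highest CPM were 230, 378 and 679 in PVN, 279, 330 and 460 in ARC, and 75.7, 93.1 and 122 in NTS. All PVN and ARC libraries were above all NTS libraries (PVN over NTS 2.11 ± 0.12, edgeR FDR = 4.38e-22; ARC over NTS 1.85 ± 0.12, FDR = 1.3e-19). Between PVN and ARC the difference was 0.25 ± 0.12 (edgeR FDR = 0.0794). As a share of all RGS CPM per kb described here, the shares of Rgs2 in PVN, ARC and NTS were 36.5% ± 6.72, 35.1% ± 3.68 and 10.9% ± 1.32, and those of Rgs4 25.02%, 26.7% and 31.96%. Rgs4, an RGS protein of neurons, was called in none of the 3 contrasts.

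Rgs16 and Rgs8 are R4 genes whose proteins act on Gi and Go, and they lie 40026 bases apart on chromosome 1. Rgs16 ran at 9.44, 17.4 and 22.8 CPM in PVN, 8.08, 13.8 and 33.01 in ARC, and 3.54, 6.08 and 8.69 in NTS. PVN did not overlap NTS, while ARC did (PVN over NTS 1.51 ± 0.22, edgeR FDR = 2.84e-08; ARC over NTS 1.33 ± 0.22, FDR = 5.75e-07). Rgs8 ran at 44.6, 53.1 and 72.1 CPM in PVN, 9.91, 14.2 and 41.3 in ARC, and 48.2, 66.1 and 86.5 in NTS. ARC lay below both others without overlap (PVN over ARC 1.73 ± 0.29, edgeR FDR = 1.84e-06; ARC over NTS -1.98 ± 0.29, FDR = 4.73e-08).

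Among vehicle libraries, the highest ARC value of both genes belonged to the library labelled vehicle 8, which also had the highest sum of thalamic and striatal markers. Prkcd, a marker of thalamus, stood there at 171 CPM, at 137 in treated 1, at 45.1 in treated 2, at 45.8 in vehicle 4 and at 10.1 or less in the other ARC libraries. Rgs8 stood at 103 CPM in treated 2 and 36.4 in treated 1, with the next ARC library at 23.6, and Rgs16 at 24.3 in treated 1, with the next at 16.98. In treated 2, Rgs16 was not raised: it stood at 10.3 CPM, rank 17 from the top of the 19 ARC libraries. Without vehicle 8, Rgs8 differed by 2.04 between PVN and ARC and by -2.29 between ARC and NTS, and Rgs16 by 1.10 between ARC and NTS. What part neighbouring tissue has in these 3 libraries was not tested.

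The R7 class, which works in a complex with Gnb5, was ordered by region in a different way for each gene. Rgs7 ran at 46.4, 54.4 and 61.6 CPM in PVN, 58.6, 71.6 and 78.0 in ARC and 78.3, 92.1 and 98.8 in NTS. NTS lay above both others without overlap (PVN over NTS -0.75 ± 0.05, edgeR FDR = 3.46e-20). Rgs9, known from the striatum and the retina, was highest in ARC at 87.3, 95.4 and 112.5 CPM, above all PVN values of 39.1, 46.5 and 55.4 and all NTS values of 52.3, 69.0 and 84.6 (PVN over ARC -1.03 ± 0.09, edgeR FDR = 3.82e-16). Rgs6 was highest in NTS at 21.3, 33.9 and 39.8 CPM, against 14.4, 20.8 and 28.1 in PVN and 12.5, 14.8 and 20.04 in ARC (ARC over NTS -1.12 ± 0.14, edgeR FDR = 2.49e-10; PVN over NTS -0.57 ± 0.13, FDR = 0.00019). NTS overlapped PVN and not ARC.

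Rgs11 stood at 7.75, 10.8 and 21.2 CPM in PVN and at 14.7, 17.97 and 28.1 in NTS, with overlap (-0.66 ± 0.17, edgeR FDR = 0.000669). Rgs7bp, the palmitoylated anchor that brings R7 proteins to the membrane, ran at 28.3, 36.7 and 48.5 CPM in PVN, 21.4, 28.04 and 61.7 in ARC and 54.9, 68.2 and 98.1 in NTS. NTS lay above PVN without overlap (PVN over NTS -0.99 ± 0.21, edgeR FDR = 9.15e-05). ARC overlapped both others, through 1 library in the case of NTS, vehicle 8 at 61.7 CPM.

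The R12 class has 3 members, Rgs10, Rgs12 and Rgs14. Rgs10, a small RGS protein of microglia and neurons, ran at 54.4, 60.8 and 108 CPM in PVN, 16.5, 21.98 and 24.5 in ARC, and 55.8, 72.4 and 81.8 in NTS. ARC lay below all other libraries (PVN over ARC 1.67 ± 0.10, edgeR FDR = 1.8e-23; ARC over NTS -1.77 ± 0.10, FDR = 3.9e-25). The microglia markers, 10 of 10, summed to 253 to 481 CPM in PVN, 334 to 419 in ARC and 361 to 487 in NTS. The PVN value of 481 was that of vehicle 10 alone. The next PVN library stood at 299 CPM, below the lowest ARC library, while Rgs10 was higher in PVN than in ARC. The part of microglia in the difference of Rgs10 was not tested. Rgs12, a large scaffold with RGS and GoLoco domains, separated all 3 regions without overlap: 29.8, 36.2 and 42.4 CPM in PVN, 17.4, 22.5 and 27.3 in ARC, and 43.3, 50.8 and 59.5 in NTS (ARC over NTS -1.18 ± 0.08, edgeR FDR = 1.57e-19). Rgs14, which binds inactive Gi alpha through a GoLoco motif and limits plasticity in hippocampal area CA2, was highest in ARC, while PVN and NTS overlapped. It ran at 1.25, 2.25 and 4.34 CPM in PVN, 11.4, 15.3 and 20.4 in ARC and 1.27, 2.74 and 4.91 in NTS, so ARC was far above both others (PVN over ARC -2.73 ± 0.20, edgeR FDR = 2.91e-19; ARC over NTS 2.49 ± 0.19, FDR = 1.16e-18).

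The glia of the 3 dissections also differed. Mature oligodendrocyte markers, 11 of 11, summed to 965 to 1395 CPM in vehicle PVN, 496 to 1364 in ARC and 2304 to 7018 in NTS. Astrocyte markers, 9 of 9, summed to 2477 to 4219.8, 1984 to 2658.5 and 4691 to 7031 CPM, and 8 neuronal markers to 3490.5 to 4245, 2739.9 to 3169.7 and 4487 to 5452. No gene of these lists was at 0 throughout a group. The part of cell composition in the differences between regions was not tested.

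The enzymes and channels that G proteins act on were counted in the same 3 contrasts, in which 46%, 56.1% and 61.7% of all genes were called. Each list holds only 4 to 9 genes. None was tested as a set, and the counts are not read as a difference from all genes. Of 9 adenylyl cyclase genes tested, 5 were higher and 1 lower in PVN than in ARC, 6 higher and 1 lower in PVN than in NTS, and 3 higher and 6 lower in ARC than in NTS. Adcy8, a cyclase stimulated by calcium and calmodulin, stood at 88.7 ± 11.95 CPM in PVN, 15.8 ± 3.47 in ARC and 60.5 ± 5.98 in NTS (PVN over ARC 2.47 ± 0.11, ARC over NTS -1.92 ± 0.11). Adcy7 stood at 37.04 ± 6.13, 13.1 ± 2.27 and 34.96 ± 2.48 CPM, and Adcy5, a cyclase inhibited by Gi, at 248 ± 17.2, 233 ± 17.8 and 149.9 ± 18.6 CPM. Adcy6, its near relative, stood at 81.0 ± 13.1, 118 ± 13.2 and 44.9 ± 4.28 CPM. Adcy8 and Adcy7 thus stood lowest in ARC, and Adcy5 and Adcy6 lowest in NTS.

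Of 4 phospholipase C beta genes, 3 were higher in PVN than in ARC, 3 were lower in PVN than in NTS and 3 lower in ARC than in NTS. Of all genes, 46%, 56.1% and 61.7% were called in these contrasts, and lists of 4 genes are too small to set apart. Plcb1, activated by Gq, stood at 65.2 ± 5.34, 34.6 ± 5.19 and 77.8 ± 12.1 CPM, and Plcb4 at 81.0 ± 6.01, 57.4 ± 11.6 and 128 ± 16.5. Of 4 GIRK channel subunits, 1 was higher and 2 lower in PVN than in ARC, 3 higher and 1 lower in PVN than in NTS, and 2 higher in ARC than in NTS. Kcnj3, the GIRK1 subunit, stood in PVN, ARC and NTS at 35.04 ± 4.41, 70.9 ± 8.06 and 63.4 ± 8.004 CPM, and Kcnj5, the GIRK4 subunit, at 12.2 ± 4.61, 19.1 ± 3.43 and 1.98 ± 0.849. Kcnj6 stood at 7.55 ± 1.92, 8.27 ± 2.63 and 3.38 ± 1.61 CPM.

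Of 7 genes for receptor kinases and arrestins, which end receptor signalling, 2 were higher and 1 lower in PVN than in ARC, 3 lower in PVN than in NTS, and 1 higher and 3 lower in ARC than in NTS. These shares were 42.9%, 42.9% and 57.1%, against 46%, 56.1% and 61.7% of all genes. With only 7 genes they are not read as a difference. Arrb1 stood at 216 ± 15.4, 126 ± 8.37 and 336 ± 46.1 CPM, Grk3 at 79.3 ± 9.99, 136 ± 8.88 and 98.2 ± 10.4, and Grk2 at 185 ± 10.3, 179 ± 14.8 and 233 ± 14.4. Among 8 chaperones, GoLoco proteins and RGS anchors, Gpr179 had the widest gap. This orphan receptor, which recruits R7 proteins in the retina, stood at 4.61 ± 1.29 CPM in PVN, 42.7 ± 5.67 in ARC and 8.69 ± 2.15 in NTS (PVN over ARC -3.23 ± 0.18). Its relative Gpr158 stood at 178 ± 17.1, 131 ± 8.33 and 107 ± 10.2, and Ric8b, a chaperone of Gs and Golf, at 112 ± 8.91, 115 ± 6.98 and 90.1 ± 6.05. Of these 8 genes, 3 were higher and 1 lower in PVN than in ARC, 3 higher and 4 lower in PVN than in NTS, and 3 higher and 3 lower in ARC than in NTS, or 50%, 87.5% and 75% against 46%, 56.1% and 61.7% of all genes.

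Treated and vehicle libraries were compared within each region to ask how the machinery changes 4 h after IP118/PY115. Under the deposited labels no member was called in any region. In PVN the members of smallest p were Gng4, Rgs16, Rgs8, Rgs9 and Gna12. The edgeR quasi-likelihood test called 0 of 40 members in PVN, where 0.656% of 13409 genes were called, 0 of 46 in ARC and 0 of 43 in NTS, where 0% of 13484 and 0% of 13696 genes were. At an unadjusted p under 0.05 there were 7 members in PVN (17.5%, against 9.34% of all genes), 2 in ARC (4.35%, against 7.20%) and 2 in NTS (4.65%, against 5.80%). DESeq2 called 0 members in each region, and limma-voom with quality weights called 3 in PVN and 0 in both others. The median log2 fold change of the members in PVN, ARC and NTS was -0.03, -0.01 and 0.00, against a median over all genes of -0.02, 0.00 and 0.00.

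With the libraries numbered 1 left out, edgeR called 3 of 40 members in PVN (7.5%), where 3.22% of all genes were called. Rgs16 and Rgs8 fell, as did 0.899% of all genes, and Gng4 rose, as did 2.32%. It called 0 of 46 members in ARC, where 1.14% of all genes were called, and 0 of 43 in NTS, where 1.18% were. Treated and vehicle values overlapped for every member tested under the deposited labels, as they did for all but 0.00746% of genes in PVN and for all genes in ARC and NTS. Without the libraries numbered 1, Rgs16 in PVN was separated between the groups, as were 0.697% of all genes there.

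The sequences upstream of the 4 PVN genes described next are shown because Rgs16 and Rgs8, which are neighbours on chromosome 1, changed in the same direction without the libraries numbered 1, and because Rgs2 is a known target of cyclic AMP signalling. Each is the 250 bases before the RefSeq start on GRCm38.p6, read 5′ to 3′ on the gene's strand. Capitals mark the half-site of the cyclic AMP response element, TGACG, or its reverse complement CGTCA. RefSeq gives 3 starts for Rgs8 and 2 for Gng4, of which 1 is shown. The regions are chr1:153740103-153740352 (plus strand) for Rgs16, chr1:153652787-153653036 (plus) for Rgs8, chr1:144004150-144004399 (minus) for Rgs2 and chr13:13783809-13784058 (plus) for Gng4.
Rgs16: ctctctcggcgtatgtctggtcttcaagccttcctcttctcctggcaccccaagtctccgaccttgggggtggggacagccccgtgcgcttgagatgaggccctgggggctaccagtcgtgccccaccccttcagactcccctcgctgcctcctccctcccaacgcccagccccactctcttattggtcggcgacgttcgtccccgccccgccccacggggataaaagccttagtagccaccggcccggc
Rgs8: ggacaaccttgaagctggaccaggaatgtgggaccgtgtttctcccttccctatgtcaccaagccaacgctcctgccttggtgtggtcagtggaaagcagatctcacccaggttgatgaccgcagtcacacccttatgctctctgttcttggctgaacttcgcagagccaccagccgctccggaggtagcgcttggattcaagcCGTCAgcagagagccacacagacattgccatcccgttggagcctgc
Rgs2: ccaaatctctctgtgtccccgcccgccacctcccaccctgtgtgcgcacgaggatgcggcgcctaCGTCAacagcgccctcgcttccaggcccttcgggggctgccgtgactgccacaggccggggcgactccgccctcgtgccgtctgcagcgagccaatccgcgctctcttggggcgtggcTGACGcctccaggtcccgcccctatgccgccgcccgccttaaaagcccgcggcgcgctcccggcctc
Gng4: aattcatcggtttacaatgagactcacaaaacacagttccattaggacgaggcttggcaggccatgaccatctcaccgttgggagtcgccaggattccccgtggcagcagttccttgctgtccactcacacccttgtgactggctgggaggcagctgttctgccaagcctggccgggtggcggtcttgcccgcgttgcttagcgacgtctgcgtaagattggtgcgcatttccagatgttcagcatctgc
The half-site, searched on both strands, occurred 2 times before Rgs2, 1 time before Rgs8 and not before Rgs16 or Gng4 in these windows, and 17.9% of 27025 mouse RefSeq promoter windows of the same length held it. Neither the full element TGACGTCA (1.62% of windows) nor the E-box CACGTG (6.05%) was present in any of the 4. A match is a string of letters and not a tested binding site.

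Rgs16 (ENSMUSG00000026475, chromosome 1, 153740349 to 153745468 on GRCm38) had 59 to 277 counts in a PVN library. Its CPM in vehicle libraries 1 to 10 were 9.44, 22.8, 17.6, 18.2, 16.5, 20.3, 17.2, 16.1, 19.3 and 17.1. In treated libraries 1 to 10 they were 20.6, 12.3, 12.5, 12.4, 7.71, 12.5, 7.50, 8.21, 15.7 and 11.5. Vehicle 1 was the lowest vehicle library and treated 1 the highest treated library, and 9 of 10 treated libraries were under the vehicle median. The means were 17.5 ± 3.46 and 12.1 ± 3.96 CPM, a log2 fold change of -0.53 ± 0.16 (edgeR FDR = 0.171). Without both libraries numbered 1, vehicle ran from 16.1 to 22.8 and treated from 7.50 to 15.7 CPM, with no overlap, and the fold change was -0.73 ± 0.13 (edgeR FDR = 0.000543). Of the Rgs16 exon length, 10.1% is shared with Gm28513.

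Rgs8 (ENSMUSG00000042671, chromosome 1, 153653025 to 153700323), a neighbour of Rgs16, had 252 to 840 counts in a PVN library. Vehicle libraries ran at 44.6, 53.1 and 72.1 CPM (lowest, median, highest) and treated libraries at 32.4, 45.7 and 62.4. The lowest vehicle value was that of vehicle 1 and the highest treated value that of treated 1, and 8 of 10 treated libraries were under the vehicle median. The log2 fold change was -0.31 ± 0.10 (edgeR FDR = 0.217), and -0.41 ± 0.09 without the libraries numbered 1 (edgeR FDR = 0.0106). The ranges then were 49.3 to 72.1 and 32.4 to 53.1 CPM and still met.

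Gng4 (ENSMUSG00000021303, chromosome 13, 13784059 to 13827896), which was higher in vehicle PVN than in vehicle ARC and NTS, ran at 162, 198 and 219 CPM in vehicle and at 197, 216 and 262 CPM in treated libraries. Of the treated libraries, 9 of 10 were above the vehicle median and 4 above every vehicle library, and treated 1 was the lowest. The log2 fold change was 0.18 ± 0.06 (edgeR FDR = 0.156), and 0.20 ± 0.06 without the libraries numbered 1 (edgeR FDR = 0.0489). Rgs2 (ENSMUSG00000026360, chromosome 1, 143999338 to 144004161) ran at 230, 378 and 679 CPM in vehicle and at 286, 510.4 and 673 CPM in treated libraries. Treated 1 was the lowest of its group and the other 9 treated libraries were all above the vehicle median, but vehicle 10 was the highest library of all and the groups overlapped. It did not pass with all libraries (0.35 ± 0.16, edgeR FDR = 0.496) or without those numbered 1 (0.48 ± 0.14, edgeR FDR = 0.0818).

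**Figure D4:**
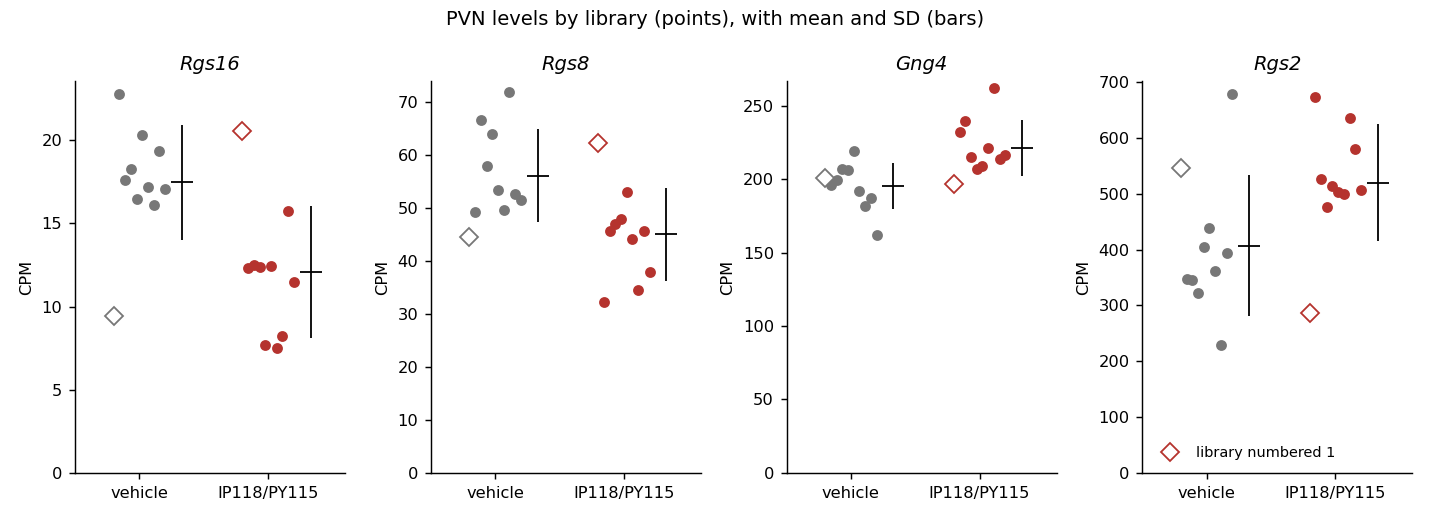
CPM of Rgs16, Rgs8, Gng4 and Rgs2 in each PVN library, vehicle (grey, n = 10) and IP118/PY115 (red, n = 10), with the libraries numbered 1 as open diamonds and the mean and SD as bars. For Rgs16 the diamonds lie at 9.44 CPM (vehicle) and 20.6 CPM (treated), each among the values of the other group.

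The other PVN members at an unadjusted p under 0.05 did not pass either. Rgs9 stood at 47.3 ± 4.40 CPM in vehicle and 52.4 ± 3.16 in treated libraries, and all 10 treated libraries were above the vehicle median (0.14 ± 0.06, edgeR FDR = 0.392). Gna12, an alpha subunit of the G12/13 class, stood at 97.0 ± 7.81 and 88.7 ± 6.22 CPM (-0.13 ± 0.05, edgeR FDR = 0.406), and Gnb4 at 85.1 ± 10.2 and 77.1 ± 6.26 CPM (-0.14 ± 0.06, edgeR FDR = 0.486). Gnas stood at 4187 ± 219 and 4283 ± 205 CPM and Gnai2 at 297 ± 12.9 and 293 ± 13.5, so the main Gs and Gi subunits moved by less than 1 SD. As a share of RGS transcript per kb, Rgs2 took 36.5% ± 6.72 in vehicle and 44.5% ± 7.34 in treated PVN.

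The marker sums of vehicle and treated PVN libraries overlapped. The oligodendrocyte sum was 965 to 1395 CPM in vehicle and 828 to 1351 in treated libraries, and the thalamus and striatum sum 72.0 to 108 and 74.7 to 94.0. Vehicle 10 had the highest microglia sum of its group, 481 CPM (next 299), and the highest astrocyte sum, 4219.8 (next 3167). Its PVN marker sum was the lowest, 8919 CPM (next 10318). It also had the highest Rgs2 (679 CPM) and the lowest Gng4 (162) and Rgs9 (39.1) of the vehicle group. The part of its composition in these values was not tested. With oligodendrocyte and region marker scores as covariates, the log2 fold change of Rgs16 with all libraries was -0.37 (edgeR FDR = 0.516).

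Of the effector lists, no gene was called in a treatment comparison with all libraries by edgeR. Kcnj3, the GIRK1 subunit, had the smallest FDR among them in PVN: it stood at 35.04 ± 4.41 CPM in vehicle and 44.4 ± 7.48 in treated libraries (0.35 ± 0.09, edgeR FDR = 0.0800). Without the libraries numbered 1 it was called in PVN (0.42 ± 0.09, edgeR FDR = 0.00405), and the other 3 GIRK genes were not.

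In ARC the member of smallest p was Gnai2, at 422, 452 and 506 CPM in vehicle and 343, 438 and 463 in treated libraries. The groups overlapped and the test did not pass (-0.13 ± 0.05, edgeR FDR = 0.531). Next were Gnaz (-0.10 ± 0.05, FDR = 0.659), Gng11 (0.43 ± 0.22, FDR = 0.71), Rgs1 (0.74 ± 0.40, FDR = 0.726) and Gna13 (-0.11 ± 0.06, FDR = 0.73), all by edgeR. Gng11 stood at 4.33 ± 1.35 CPM in vehicle and 5.93 ± 2.62 in treated libraries, of which treated 2 was the highest at 12.5. Without the 3 ARC libraries of highest neighbouring tissue sum, an alternative chosen after seeing the data, its fold change was 0.22. Rgs1, an RGS gene of lymphocytes and microglia, ran from 0.102 to 1.96 CPM in vehicle and from 0.758 to 1.96 in treated libraries, with 1 to 22 counts in a library. Microglia markers, 10 of 10, summed to 334 to 419 CPM in vehicle and 299 to 463 in treated ARC. Without the libraries numbered 1, Rgs1 (1.18 ± 0.41, edgeR FDR = 0.23) and Rgs16 (-0.48 ± 0.19, edgeR FDR = 0.424) had the smallest p, and neither passed.

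In NTS the members of smallest p were Gnb3 and Gna11, both lower in treated libraries and neither past the threshold. Gnb3 ran at 1.03, 2.37 and 3.64 CPM in vehicle and at 0.724, 1.49 and 2.23 in treated libraries, with 7 to 63 counts in a library (-0.66 ± 0.25, edgeR FDR = 0.577). Gna11, an alpha subunit of the same class as Gnaq, stood at 156 ± 9.03 and 144 ± 8.08 CPM (-0.11 ± 0.04, edgeR FDR = 0.631). Rgs2 stood at 94.6 ± 13.4 and 105 ± 14.1 CPM (0.16 ± 0.08, edgeR FDR = 0.897), with ranges of 75.7 to 122 and 89.0 to 130, and at 0.21 ± 0.08 without the libraries numbered 1 (edgeR FDR = 0.35). The fold changes of Rgs9 and Rgs4 were -0.19 ± 0.11 and 0.11 ± 0.07 (edgeR FDR = 0.999 for both). All 5 had overlapping groups.

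**Figure D5:**
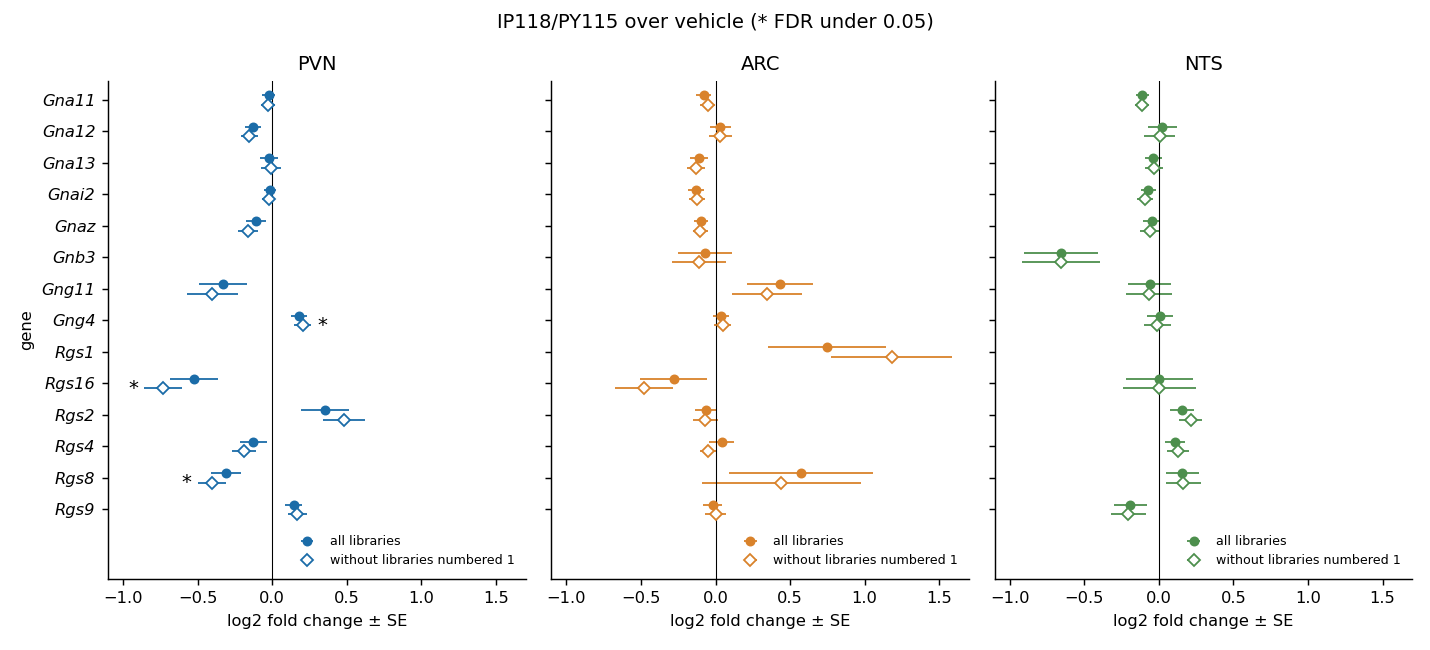
Log2 fold changes of IP118/PY115 over vehicle with SE bars in PVN, ARC and NTS for the members named in a treatment comparison, with all libraries (filled circles) and without the libraries numbered 1 (open diamonds); asterisks mark an edgeR FDR under 0.05. Asterisks stand only in PVN and only on open diamonds, at Rgs16 (-0.73), Rgs8 (-0.41) and Gng4 (0.20).

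The difference of treatment effects between regions was tested in the joint fit. By edgeR 0 of 47 members were called for PVN against ARC, PVN against NTS or ARC against NTS, where 0.0487%, 0.0904% and 0% of all genes were, and DESeq2 and limma-voom also called 0. At an unadjusted p under 0.05 there were 3, 1 and 0 members. The smallest p belonged to Gng11 between PVN and ARC (-0.76 ± 0.27, edgeR FDR = 0.582), followed by Rgs9 between PVN and NTS (0.33 ± 0.12, FDR = 0.688). Without the libraries numbered 1 again 0 members were called, where 0.362%, 0.432% and 0.244% of all genes were. The difference for Rgs2 was then 0.55 ± 0.16 between PVN and ARC (edgeR FDR = 0.146), and for Rgs16 -0.75 ± 0.29 between PVN and NTS (edgeR FDR = 0.538). By edgeR, the falls of Rgs16 and Rgs8 and the rise of Gng4 in PVN were called only with libraries numbered 1 left out. Those libraries were singled out from expression, so the calls are not independent of the outcome. None of the 3 changes is shown to differ from the effects in the other 2 regions.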

How the data were processed

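RNA counts per Ensembl gene in 59 laser-captured PVN, ARC and NTS libraries were used as deposited. The authors demultiplexed with bcl2fastq 2.20.0.422 and aligned to GRCm38 with STAR 2.5.2a, per the submitters' processing notes. Libraries were stranded TruSeq mRNA, per the labels' protocols. The counter, its strand setting and the annotation release are not given in the sources used here. Of 21935 identifiers, 21858 matched a symbol and 77 did not. Exon lengths came from a GRCm38 annotation and promoters from RefSeq (39 of 53 members matched). Members and lists were chosen with earlier results of these data known, and 1 gene that the symbol patterns match is not reported here.

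Counts were tested with edgeR 4.0.16 in R 4.3.3: filterByExpr (minimum count 10, minimum total 15), TMM, robust quasi-likelihood tests and Benjamini-Hochberg adjustment over all genes tested, called at 0.05. Treatments were fitted within a region, and regions and interactions in a joint fit of 6 groups, with DESeq2 1.42.0 and limma 3.58.1 (voom) among the alternatives. All tests are two-sided. Counts were simulated for the PVN treatment comparison (13344 genes), with changes only in genes of a mean of at least 5 CPM. Every simulated library kept to its own group. Of the changed genes, 92% of 100 changed 1.5-fold and 100% of 100 changed 2-fold were recovered. For the vehicle contrast of PVN and ARC, 83% and 99% were. Smaller changes and changes in genes of lower level were not simulated.

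Any member could be named. Values by library are given for members called in a treatment comparison with or without the libraries numbered 1, for the 5 of smallest p per region, and for the 4 largest differences in each direction per vehicle contrast among called members with a mean of at least 5 CPM, with up to 2 genes per effector list and contrast.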

Additional observations from a re-analysis of the deposited data

Results flagged for a closer look

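Each named member was screened only in the groups of the comparisons that named it. In these 65 groups of libraries, the highest or lowest library was compared with the rest by Dixon's criterion. In all, 9 stood apart, where chance gives about 3.2 at 1 in 20. In PVN these were Rgs16 in vehicle 1, lowest at 9.44 CPM with the next at 16.1, Rgs10 in vehicle 8, highest at 108 CPM with the next at 76.6, and Rgs11 in vehicle 7, highest at 21.2 CPM with the next at 14.8. In ARC they were Rgs8 in vehicle 8 (41.3 CPM, next 17.3), Rgs16 in vehicle 8 (33.01 CPM, next 16.98), Gng11 in treated 2 (12.5 CPM, next 7.10) and Gna13 in treated 1 (114 CPM, next 100.3). In NTS they were Rgs7 in vehicle 2, lowest at 78.3 CPM with the next at 89.0, and Rgs14 in vehicle 1, highest at 4.91 CPM with the next at 3.14. The vehicle 8 libraries of PVN and ARC, which each appear above, belong to the 5 vehicle libraries numbered apart from the rest, and the labels do not say what that numbering marks. Other groups were not screened, so the list is not complete. Among them, Rgs8 in treated ARC 2 stood at 103 CPM (next 36.4) and Rgs16 in treated ARC 1 at 24.3 (next 13.7). In treated PVN 1, Rgs4 was highest at 305 CPM (next 225) and Rgs2 lowest at 286 (next 476).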

How the results depend on the processing

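In PVN, 0 members were called between treatments with all libraries by edgeR. The count was 3 by limma-voom with quality weights (1 higher, 2 lower; Rgs16 -0.74, FDR = 0.0031, and Rgs8 -0.33, FDR = 0.041) and 3 without the libraries numbered 1. It ran from 0 to 2 over 20 fits that each left out 1 library. Without treated PVN 1 edgeR called Rgs16 (FDR = 0.013) and Rgs8 (FDR = 0.0347), and without vehicle PVN 1 Rgs16 (FDR = 0.0238). The cause was not tested. For Rgs16 in PVN, DESeq2 gave -0.53 (FDR = 0.0644), a covariate for log10 library total -0.46 (FDR = 0.511), and fits without the low-depth libraries vehicle 3 and 8 -0.53 (FDR = 0.313). In ARC, NTS and the 3 differences of treatment effects, 0 members were called under every alternative run.

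Between regions, members called ran from 28 to 32 for PVN and ARC, from 19 to 23 for PVN and NTS and from 34 to 37 for ARC and NTS when 1 library was left out. Without the 3 ARC libraries of highest neighbouring tissue sum the counts were 30, 23 and 36. The vehicle contrasts of the members that the naming rule picked in them kept their direction and their side of the threshold, in 264 values from other settings and 1416 that left out 1 library. Over all members, scaling by library totals alone reversed none, but for PVN and ARC it lost Gnai3 and Gnao1 and added Rgs20, Gnb1, Gna11 and Gna13, for PVN and NTS it added Gnas, Gng5, Gng11 and Gna15, and for ARC and NTS it lost Gnai3 and added Gnb1. Marker scores were not fitted between regions.

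No paired analysis was run. The labels give no replicate numbers shared between groups and do not say what the parallel library numbers of the regions mark. Any sharing of animals between regions was thus not taken into account, and the joint fit took all libraries as independent. Members under about 1 CPM rest on few counts, which limits what can be said of them.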
